A study of Bos taurus with 179 samples.

Results

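The transcripts of the CCR4-NOT complex, the main deadenylase of the cytoplasm, were followed across the growth of bovine oocytes. Of the 10 subunit genes considered (CNOT1, CNOT2, CNOT3, CNOT6, CNOT6L, CNOT7, CNOT8, CNOT9, CNOT10 and CNOT11), 8 were paired with a gene ID by the study's supplementary tables and are described here, among 21218 gene IDs in the count table. CNOT1 and CNOT3 were not analysed here. The list of genes was set by symbol. Pairing came from the study's list of expressed genes, so the subunits described had passed a filter on these counts.

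Single oocytes of Bos taurus were freed from abattoir ovaries, denuded by pipetting, measured and sequenced from their polyadenylated mRNA by a Smart-seq2 type protocol, with no treatment and no genotype given. The 165 oocytes that the study kept, of 179 deposited, had diameters from 48.0 to 135.0 μm and fell into 8 size groups: group A held oocytes under 60 μm, group B those from 60 to 69 μm, group C 70 to 79 μm, group D 80 to 89 μm, group E 90 to 99 μm, group F 100 to 109 μm, group G 110 to 119 μm and group H those over 120 μm, with 14 to 25 oocytes each. The libraries were made in 2 replicates, replicate 1 (97 oocytes) read with 150 bp and replicate 2 (68 oocytes) with 75 bp, so that read length and library batch cannot be told apart. The animals were not named, and how many ovaries or animals stand behind a group is not given in the sources used here, so p-values measure the spread between these samples only.

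CCR4-NOT shortens the poly(A) tails of mRNAs, which in most cells leads to decapping and decay. CNOT1 is its scaffold, CNOT2 and CNOT3 form the NOT module, CNOT9 binds partner proteins, and CNOT10 and CNOT11 form a module at the other end of the scaffold. Its nucleases come in pairs of paralogs: CNOT6 and CNOT6L are of the CCR4 type, CNOT7 and CNOT8 are of the CAF1 type, and a complex carries a single enzyme of each type. In oocytes, which store mRNAs during growth for use after transcription has stopped, the length of the tail is a main control of translation, and BTG4 brings the complex to maternal mRNAs during meiotic maturation.

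Counts summed to between 277126 and 8038061 per oocyte (median 1763520). For the tests the counts of the oocytes of 1 size group and 1 replicate were added, which gave 16 sums of 3 to 18 oocytes with totals from 4467434 to 46545515. In the sum of group F of replicate 1, 1 oocyte held 52.9% of the counts, and in that of group A of replicate 1, 46.6%. No pair of oocytes agreed within sampling noise. The 6 oocyte markers together took between 3361 and 9094 counts per 1000000 counts of a sum, and the 7 markers of granulosa, theca and stroma cells between 4.68 and 27. AMHR2, CYP11A1, CYP17A1, COL1A1 and COL3A1 had at most 21 counts in any sum, while COL1A2, with 2 to 255 counts, rose from A to H (log2 fold change 3.20, edgeR adjusted p = 0.0055). ACTA2, the somatic marker with the most counts (0 to 714 in a sum), was not called from A to H (95% interval -2.76 to 0.75; edgeR adjusted p = 0.43) and was lower in replicate 2 (-1.72, edgeR adjusted p = 0.0019). The part of such cells in the results was not tested.

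No subunit passed the threshold in the 10 comparisons of sizes fitted over both replicates. Between groups A and H, 0 of the 8 subunits were called at an adjusted p of 0.05 by edgeR's quasi-likelihood test with the replicate as a block, where 19.2% of 14087 genes were called (7.4% without the A sum and 7.63% without the H sum of replicate 1, and 10.2% without the H sum of replicate 2), and 0 of 8 reached an unadjusted p under 0.05, as 33.5% of all genes did. For the slope with diameter, 0 of 8 were called against 33% of all genes, with CNOT2 alone at an unadjusted p under 0.05 (42.8% of all genes). For any difference among the 8 size groups, 0 of 8 were called against 14.9%. The steps between neighbouring sizes gave 0 of 8 each: A to B (0.0142% of all genes called), <70 μm to C (0.135%), C to 80-99 μm (0%), D to E (0%), 80-99 μm to F (0.497%), F to G (3.88%) and G to H (0.0071%). The share from F to G moved with single sums: 0 genes were called without the F sum or without the G sum of replicate 1, 79 without the B sum of replicate 2 and 1478 without the F sum of replicate 2, beside 547 with all sums. The other small shares moved too: with sums left out, 0% to 0.354% of all genes were called from A to B (most without the A sum of replicate 2), 0.0135% to 1.2% from <70 μm to C (fewest without the C sum of replicate 1, most without the A sum of replicate 2), 0% to 1.99% from 80-99 μm to F (0% without the D or E sum of replicate 2 or the F sum of replicate 1, most without the A sum of replicate 1) and 0% to 1.99% from G to H (most without the G sum of replicate 2). Where 0% of genes were called, 780 genes (5.54%, C to 80-99 μm, none of the subunits) and 469 genes (3.33%, D to E, CNOT6 among them) had an unadjusted p under 0.05.

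At the median the fitted differences of the subunits were smaller than those of all genes tested, which were not matched for level. In some steps the median absolute log2 fold changes were close. They were 0.40 for the subunits and 0.44 for all genes from 80-99 μm to F, and 0.37 and 0.46 from G to H. The median absolute log2 fold change from A to H was 0.36 over the 8 subunits and 0.73 over the 14087 genes tested. The median signed log2 fold change was -0.35 for the subunits and -0.12 for all genes, with 2 subunits above 0. With 2 sums per group the 95% intervals were wide, for CNOT11 from -0.91 to 0.70, so a count of 0 does not show that these levels stayed the same.

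With single oocytes in place of sums, edgeR called more genes and more subunits, but oocytes of 1 animal are not independent and the animals are unknown, so these p-values may be too small. Among the size groups it called CNOT2, CNOT7 and CNOT9 (65.4% of 10993 genes called). From A to H it called CNOT2 (log2 fold change -0.59, edgeR adjusted p = 0.016; 40.5% of all genes called). For the slope it called CNOT2 (-0.07 per 10 μm, edgeR adjusted p = 0.00077) and CNOT6 (-0.09 per 10 μm, edgeR adjusted p = 0.0067), against 57.7% of all genes.

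**Figure D1:**
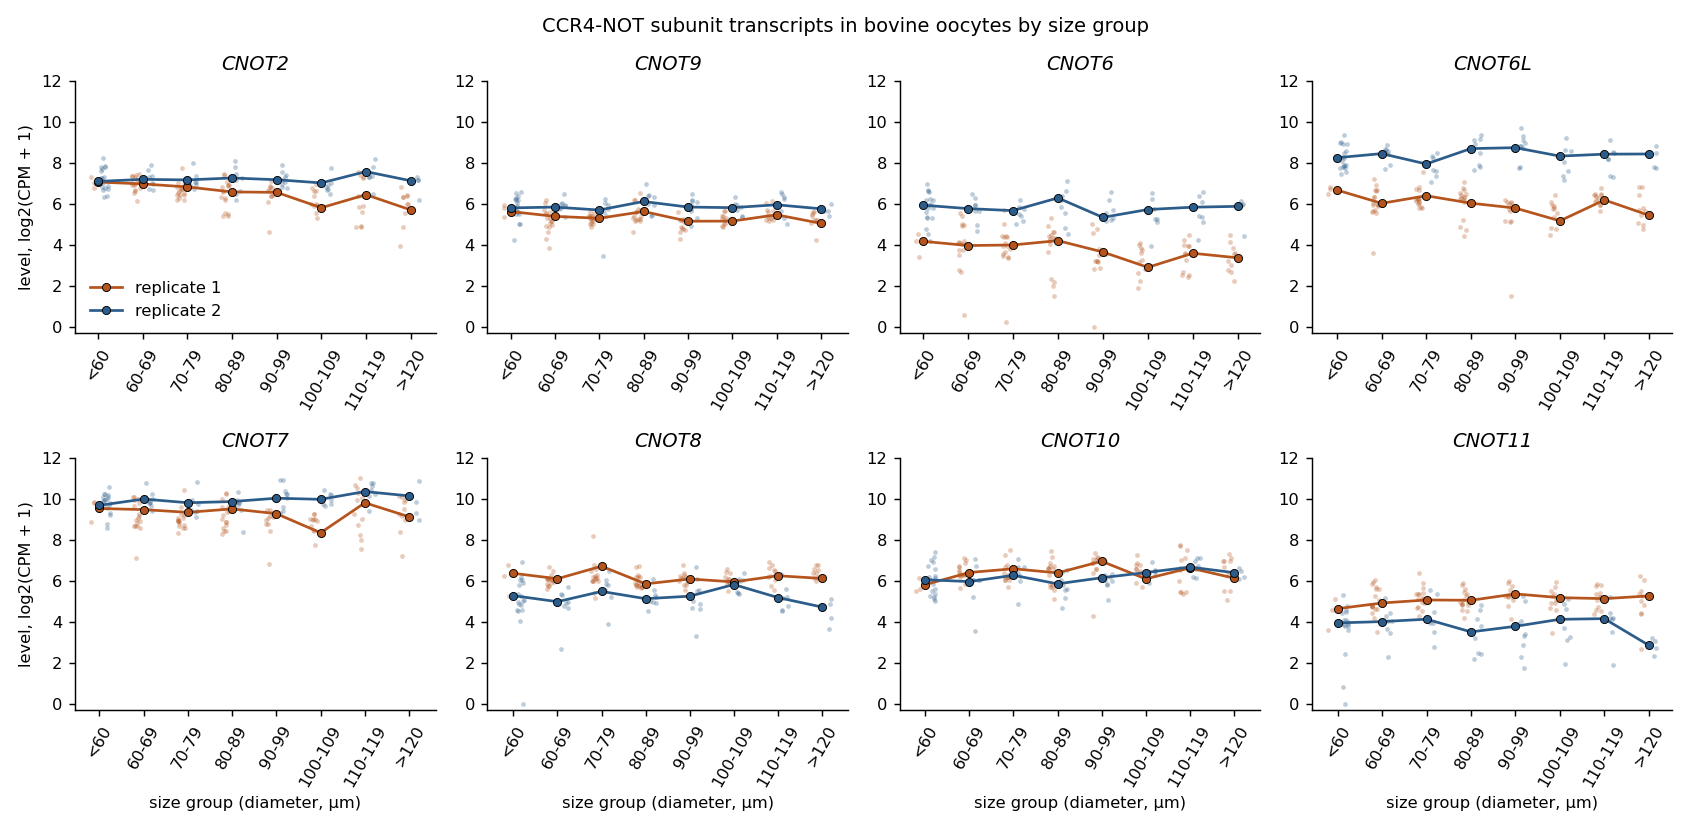
Level of each subunit, log2(CPM + 1), against the size group in μm. Small points are single oocytes and large joined points the sums of a size group, in orange for replicate 1 and blue for replicate 2; CPM uses a TMM scale set separately for oocytes and for sums. The replicates stand apart for CNOT6, CNOT6L and CNOT9 (replicate 2 higher) and for CNOT8 and CNOT11 (replicate 1 higher).

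Levels are given as CPM, counts per 1000000 after TMM scaling of the sum. They count polyadenylated mRNA captured with oligo-dT, and they do not account for transcript length, so they are compared for 1 gene across samples and never between genes.

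CNOT2, a core subunit of the NOT module, was the member with the most negative fitted difference from A to H, also the largest in size. Its level in the 8 sums of replicate 1 ran from 51.8 CPM (group H) over a median of 95.1 CPM to 134 CPM (group A). In the 8 sums of replicate 2 it ran from 130 CPM over a median of 145 CPM to 191 CPM. The replicates met in group A, at 134 and 137 CPM, and parted by group H, at 51.8 and 140 CPM. The fitted log2 fold change from A to H was -0.67 ± 0.33 (SE; 95% interval -1.35 to 0.02; edgeR adjusted p = 0.16). Over 23 alternatives it ran from -0.99 without the H sum of replicate 2 to -0.23 without the A sum of replicate 1. The slope was -0.07 per 10 μm (edgeR adjusted p = 0.11).

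CNOT9, which binds effectors such as the GW182 proteins of microRNA silencing, had the narrowest ranges. Its sums lay between 32.5 and 49.0 CPM in replicate 1 (median 40.1 CPM) and between 51.6 and 69.1 CPM in replicate 2 (median 56.5 CPM). The highest sum was thus 1.51 times the lowest in replicate 1 and 1.34 times in replicate 2. From A to H the log2 fold change was -0.32 ± 0.27 (SE; edgeR adjusted p = 0.43), and -0.41 and -0.097 without the A sum of replicate 2 and of replicate 1.

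Of the CCR4-type nucleases, CNOT6 had 6.59 to 17.7 CPM in the sums of replicate 1 (median 13.3 CPM) and 40.0 to 78.1 CPM in those of replicate 2 (median 55.5 CPM). CNOT6L had 35.5 to 102 CPM in replicate 1 (median 65.1 CPM) and 248 to 430 CPM in replicate 2 (median 346.7 CPM). For neither gene did the sums of the replicates overlap. The log2 fold change from A to H was -0.45 ± 0.34 for CNOT6 (SE; 95% interval -1.15 to 0.25; edgeR adjusted p = 0.37), and -0.62 without the H sum of replicate 2 and -0.10 at 250000 counts per oocyte. For CNOT6L it was -0.57 ± 0.36 (SE; 95% interval -1.33 to 0.19; edgeR adjusted p = 0.29), and it ran from -0.92 without the A sum of replicate 2 to 0.0055 without that of replicate 1. Both paralogs had their lowest sum of replicate 1 in group F, the sum in which 1 oocyte held 52.9% of the counts, and CNOT6 had 105 counts there.

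Of the CAF1-type nucleases, CNOT7 had 323.3 to 892 CPM in the sums of replicate 1 (median 677 CPM) and 818 to 1303 CPM in those of replicate 2 (median 1007 CPM). CNOT8 had 56.8 to 104 CPM in replicate 1 (median 68.0 CPM) and 25.4 to 55.4 CPM in replicate 2 (median 36.2 CPM), with no overlap. CNOT7 was thus higher in replicate 2 and CNOT8 in replicate 1. From A to H the log2 fold change was 0.02 ± 0.32 for CNOT7 (SE; 95% interval -0.66 to 0.69; edgeR adjusted p = 0.98), and -0.17 and 0.36 without the A sum of replicate 2 and of replicate 1. For CNOT8 it was -0.38 ± 0.31 (SE; 95% interval -1.02 to 0.25; edgeR adjusted p = 0.40), and -0.66 and -0.039 without the H sum of replicate 1 and of replicate 2. The H sum of replicate 2 was its lowest, with 109 counts.

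The module of CNOT10 and CNOT11 binds near the amino-terminal end of CNOT1. CNOT10 had 55.3 to 123 CPM in the sums of replicate 1 (median 83.2 CPM) and 56.8 to 101 CPM in those of replicate 2 (median 73.1 CPM), and was the member whose replicates differed least. CNOT11 had 24.03 to 40.1 CPM in replicate 1 (median 33.3 CPM) and 6.29 to 16.9 CPM in replicate 2 (median 14.8 CPM), with no overlap. Its lowest value, in group H of replicate 2, rested on 27 counts. The log2 fold changes from A to H were 0.33 ± 0.31 for CNOT10 (SE; edgeR adjusted p = 0.48) and -0.11 ± 0.38 for CNOT11 (SE; edgeR adjusted p = 0.88). That of CNOT10 was 0.14 and 0.68 without the A sum of replicate 1 and of replicate 2, and that of CNOT11 ran from -0.996 without the H sum of replicate 1 to 0.53 without that of replicate 2.

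**Figure D2:**
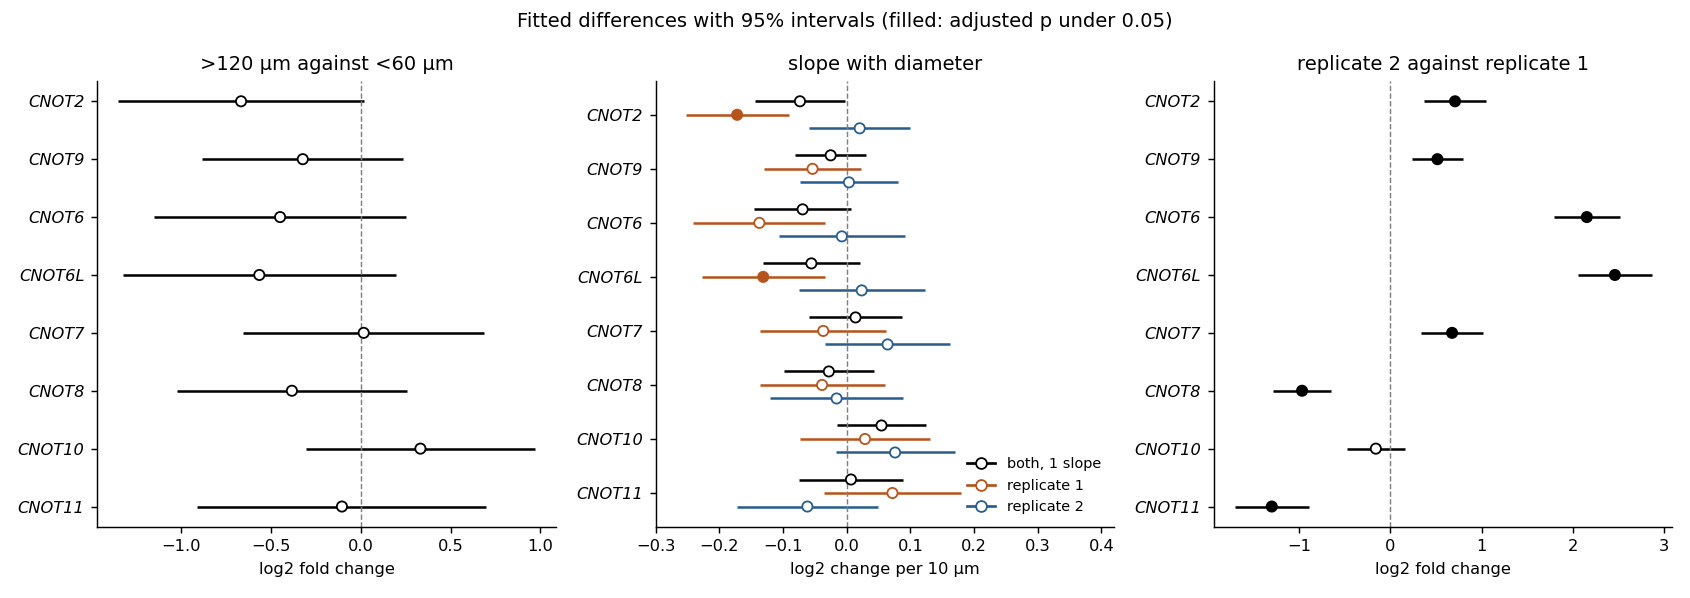
Fitted log2 differences of the subunits with 95% intervals: H against A (left), change per 10 μm of diameter with 1 slope for both replicates or a slope for each (middle), and replicate 2 against replicate 1 (right). Filled points passed an adjusted p of 0.05. They are CNOT2 and CNOT6L for the slope of replicate 1, and 7 of the 8 subunits for the difference between replicates. With all sums in the fit, CNOT6L passed with this TMM reference alone.

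The slopes were then fitted for each replicate, a comparison chosen after the data had been seen. In replicate 1, 2 of 8 subunits were called lower with diameter, where 23.8% of all genes were called in either direction and 13.3% lower. CNOT2 fell by 0.17 per 10 μm on the log2 scale (95% interval -0.25 to -0.09; edgeR adjusted p = 0.0034) and CNOT6L by 0.13 (95% interval -0.23 to -0.03; edgeR adjusted p = 0.045). CNOT6 lay just outside the threshold, with a slope of -0.14 (edgeR adjusted p = 0.050).

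The call of CNOT6L changed with the scaling and with single sums. TMM scales each sum against a reference sum, here that of group H in replicate 2. With each of the other 15 sums as the reference, CNOT6L was called in 0 of 15 fits (slope -0.12 to -0.10, edgeR adjusted p from 0.057 to 0.13), and with RLE scaling it was not called either (-0.12, edgeR adjusted p = 0.074). CNOT2 was called in 15 of 15 (-0.16 to -0.14, edgeR adjusted p from 0.0043 to 0.015) and with RLE scaling (-0.16, edgeR adjusted p = 0.0064). Of all genes called in replicate 1, 44.3% rose, against 48.2% to 58.9% with the other references. With each of the 16 sums left out, which in most cases also changed the reference, CNOT2 was called in 15 of 16 fits. The exception was the fit without the H sum of replicate 1, its lowest value (-0.13, edgeR adjusted p = 0.087). In the A sum and the F sum of replicate 1, 1 oocyte held 46.6% and 52.9% of the counts. Without these sums in turn, the slope of CNOT2 was -0.16 (edgeR adjusted p = 0.040) and -0.13 (edgeR adjusted p = 0.016). CNOT6L was called in 1 of 16, without the G sum of replicate 1 (-0.16, edgeR adjusted p = 0.011), and had a slope of -0.08 (edgeR adjusted p = 0.42) without the A sum of replicate 1.

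In replicate 2, 0 of 8 were called, against 14.4% of all genes, with slopes of 0.02 for CNOT2, 0.02 for CNOT6L and -0.01 for CNOT6.

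The difference between the 2 slopes was tested itself. It was called for 0 of 8 subunits and for 0% of all genes by edgeR, with 1527 genes (10.8%) and 2 of the 8 subunits at an unadjusted p under 0.05. For CNOT2 the slope of replicate 2 exceeded that of replicate 1 by 0.19 per 10 μm (95% interval 0.08 to 0.31; unadjusted p = 0.0019 and adjusted p = 0.23 by edgeR), and for CNOT6L by 0.15 (unadjusted p = 0.030 and adjusted p = 0.40 by edgeR). The fall of CNOT2 in replicate 1 is therefore not shown to differ from replicate 2 once all genes are accounted for.

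The largest step between neighbouring groups was that of CNOT7 from F to G. Its level went from 323.3 to 892 CPM in replicate 1 and from 1002 to 1303 CPM in replicate 2, higher in G in both. The fitted log2 fold change was 0.84 ± 0.32 (SE; 95% interval 0.17 to 1.52; unadjusted p = 0.017 and adjusted p = 0.11 by edgeR). The medians of single oocytes went the same way, from 493 to 792 CPM in replicate 1 (11 and 12 oocytes) and from 967 to 1391 CPM in replicate 2 (7 oocytes each). The ranges of the oocytes overlapped in both replicates. DESeq2 called this step (log2 fold change 0.89, adjusted p = 0.032; 14.5% of all genes called), as did edgeR on single oocytes (0.72, adjusted p = 0.0043; 37% of all genes called). Without the F sum of replicate 2 edgeR called it too (1.51, adjusted p = 0.022; 9.94% of all genes called), and without the F sum of replicate 1, in which 1 oocyte held 52.9% of the counts, the value was 0.40 (adjusted p = 0.70). Of 23 alternatives in all, 3 called it, with adjusted p from 0.0043 to 0.84.

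The other 7 subunits were not called from F to G under any of these alternatives. In that step 6 of 8 subunits had a fitted value above 0, and their median was 0.38 beside -0.06 for all genes. From G to H 0 of 8 were above 0, with a median of -0.37 beside 0.02 for all genes. None of these differences was called.

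The paralogs were compared by the ratio of their summed counts, which cancels the depth of a sum but not the lengths of the transcripts, so only its course across samples carries meaning. The ratio of CNOT6L to CNOT6 lay between 3.69 and 6.50 in the sums of replicate 1 (median 5.04) and between 4.90 and 10.8 in those of replicate 2 (median 6.02). The highest value was that of group E in replicate 2. The log2 ratio had a Pearson's r of 0.15 with mean diameter (permutation p = 0.61, adjusted over the 2 ratios 0.61) and a Spearman's rho of 0.15 (permutation p = 0.59, adjusted 0.59) over 16 sums with the replicate means removed. Within replicates r was 0.04 in replicate 1 and 0.23 in replicate 2, and 0.33 over both without the sums farthest from the median diameter.

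The ratio of CNOT8 to CNOT7 lay between 0.0783 and 0.188 in the sums of replicate 1 (median 0.110) and between 0.0225 and 0.0553 in those of replicate 2 (median 0.0361). Group F held the highest ratio in both replicates. The log2 ratio had a Pearson's r of -0.22 with mean diameter (permutation p = 0.43, adjusted 0.61) and a Spearman's rho of -0.18 (permutation p = 0.53, adjusted 0.59). Within replicates r was 0.10 in replicate 1 and -0.52 in replicate 2, and -0.04 over both without the sums farthest from the median diameter. No change of either ratio with diameter was thus detectable over these 16 sums.

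**Figure D3:**
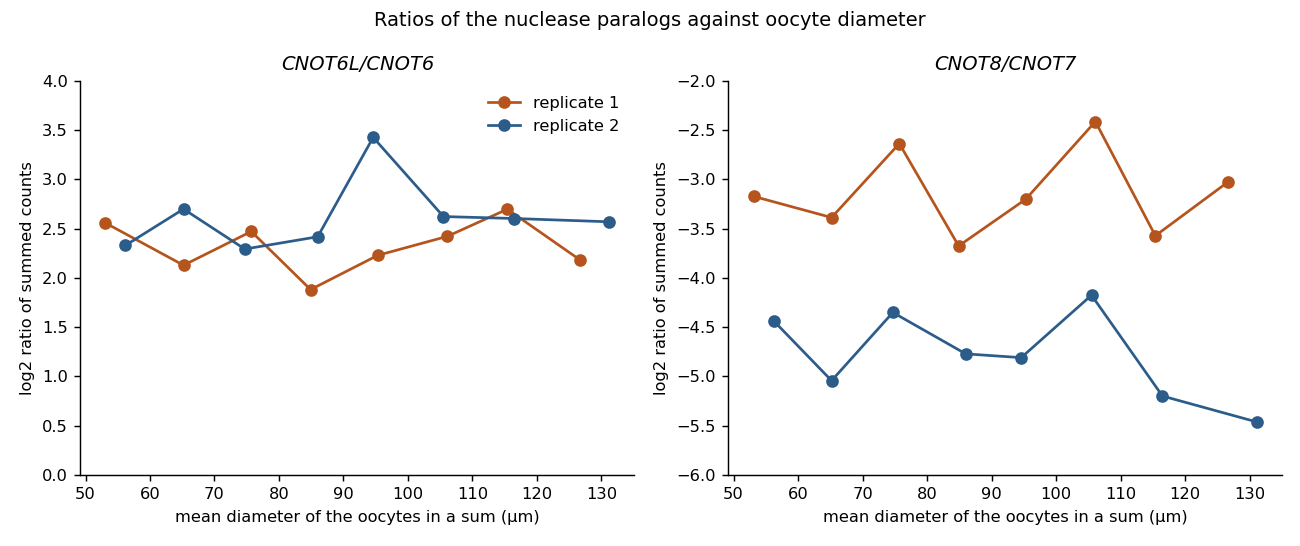
The log2 ratio of summed counts of CNOT6L to CNOT6 (left) and of CNOT8 to CNOT7 (right) against the mean diameter in μm of the oocytes in a sum, in orange for replicate 1 and blue for replicate 2. The curves of CNOT6L to CNOT6 cross, and those of CNOT8 to CNOT7 stay apart, with replicate 1 higher in each of the 8 size groups.

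In single oocytes, with 1 added to each count, the median log2 ratio of CNOT6L to CNOT6 was 2.29 in replicate 1 and 2.54 in replicate 2. That of CNOT8 to CNOT7 was -2.94 in replicate 1 and -4.64 in replicate 2.

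More subunits were called between the replicates than between the sizes. The replicates were compared over 8 sums on each side, while each size group held 2 sums. In the same fit as the size groups, 7 of 8 subunits differed between replicates, against 57.7% of all genes, 5 of them higher in replicate 2 (25.9% of all genes) and 2 lower (31.7%). CNOT6L was 5.51-fold higher in replicate 2 (log2 fold change 2.46 ± 0.19, SE; edgeR adjusted p = 8.7e-09) and CNOT6 4.45-fold (2.15 ± 0.17, SE; edgeR adjusted p = 1.1e-08). CNOT2, CNOT7 and CNOT9 were higher by 0.71, 0.68 and 0.52 on the log2 scale. CNOT11 was lower (-1.30 ± 0.19, SE; edgeR adjusted p = 1.3e-05), as was CNOT8 (-0.97 ± 0.15, SE; edgeR adjusted p = 2.6e-05), and CNOT10 was not called (-0.16, edgeR adjusted p = 0.40). These 7 calls were made in each of the 16 fits with a sum left out, in each of the 15 with another TMM reference and with RLE scaling.

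These directions held in each size group. Replicate 2 was higher in 8 of 8 size groups for CNOT2, CNOT6, CNOT6L, CNOT7 and CNOT9, in 0 of 8 for CNOT8 and CNOT11, and in 4 of 8 for CNOT10, with TMM scaling and with total counts alike. The median of all genes for the same mean difference was -0.12 with TMM scaling and -0.15 with total counts. For 5 subunits (CNOT6, CNOT6L, CNOT8, CNOT9 and CNOT11) the sums of the replicates did not overlap at all, against 17.5% of all genes. The ratio of CNOT8 to CNOT7 was lower in replicate 2 in each of the 8 size groups, with a log2 difference of -1.65 ± 0.40 (SD, n = 8 size groups; exact sign-flip test, two-sided, p = 0.0078, which is the smallest it can give; adjusted over the 2 ratios 0.016). The ratio of CNOT6L to CNOT6 was higher in replicate 2 in 5 of 8, with a log2 difference of 0.30 ± 0.48 (SD, n = 8 size groups; exact sign-flip test, two-sided, p = 0.12, adjusted 0.12). The 8 size groups share the same 2 replicates. The p-values for the replicates therefore measure the spread between sums, not between library batches. The replicates differ in read length, library batch and oocytes, whose parts in this difference cannot be told apart.

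Nearly every oocyte held counts of every subunit described. These subunits came from the study's list of expressed genes in the same oocytes, so wide detection was partly set by that choice. CNOT2, CNOT6L, CNOT7, CNOT9 and CNOT10 had at least 1 count in 165 of 165 oocytes, and CNOT6, CNOT8 and CNOT11 in 164 of 165 each. With each oocyte thinned to 250000 counts, CNOT6 was at 0 in 13 oocytes, CNOT11 in 10 and CNOT8 in 1. The median count per oocyte was lowest for CNOT6 (41) and CNOT11 (44) and highest for CNOT7 (1450).

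Around the mean of its size group and replicate, an oocyte's log2(CPM + 1) had an SD of 0.47 for CNOT9, the lowest of the subunits, 0.59 for CNOT2 and 0.94 for CNOT6, the highest. The median over 10993 genes was 0.86, and 7 of the 8 subunits lay under it, though these genes were not matched for level. Across the 165 oocytes, with the mean of each replicate removed, Pearson's r with diameter was -0.33 for CNOT2, -0.21 for CNOT6, -0.12 for CNOT6L, -0.02 for CNOT11, 0.02 for CNOT9, 0.08 for CNOT7, 0.10 for CNOT8 and 0.16 for CNOT10. The median absolute r was 0.11 for the subunits and 0.21 for all 10993 genes. For CNOT2 r was -0.49 in replicate 1 and -0.07 in replicate 2. The oocytes differ in depth, and some may share an animal, so these values are a description.

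Some subunits varied together from oocyte to oocyte. With the means of size group and replicate removed, r over 165 oocytes was 0.68 for CNOT2 and CNOT7, 0.57 for CNOT6 and CNOT6L, and 0.51 for CNOT10 with each of CNOT2 and CNOT7. The paralogs CNOT7 and CNOT8 had an r of 0.06. The lowest value was -0.27, for CNOT6L and CNOT8. Over the 28 pairs the median was 0.07, while that between a subunit and any other gene was 0.01.

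**Figure D4:**
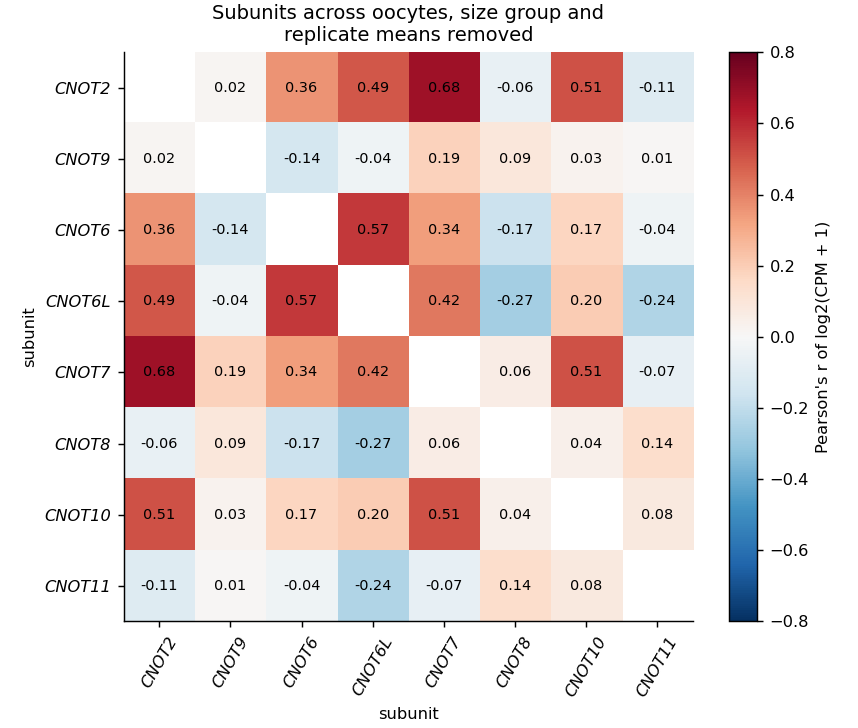
Pearson's r of log2(CPM + 1) between subunits over 165 oocytes, with the means of size group and replicate removed, from blue (negative) over white to red (positive). CNOT2, CNOT6, CNOT6L, CNOT7 and CNOT10 form the red pairs, and CNOT8, CNOT9 and CNOT11 stand near 0 with most of the others.

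Among 2928 genes with a symbol, those whose log2 CPM over the 16 sums, with replicate means removed, was most like that of a nuclease are named as a description. Most of the 14087 genes tested had no symbol here and were not compared. Each r is among the highest of many, so its size alone carries little meaning. For CNOT6 they were CCNT2 (r = 0.93) and CA12 (r = 0.90). For CNOT6L they were CCNC (r = 0.95) and CEP350 (r = 0.93). For CNOT7 they were CUL5 (r = 0.93) and CHURC1 (r = 0.92), and for CNOT8 TXNRD3 (r = 0.77) and RGS9 (r = 0.76).

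Proteins that recruit CCR4-NOT to mRNAs or act beside it were counted as a list of 21 genes with a symbol, all of them tested. Among the 8 size groups, 3 of 21 were called (BTG1, BTG3 and CAPRIN1), where 14.9% of all genes were. There BTG1 was not called without the G sum of replicate 1 (edgeR adjusted p = 0.15), at 250000 counts per oocyte (0.097) or with all 179 oocytes (0.082). BTG3 was not called without the B sum of replicate 2 (edgeR adjusted p = 0.12), the D sum of replicate 2 (0.056) or the H sum of replicate 1 (0.078). From A to H, 5 of 21 were called, all lower, where 9.8% of all genes were lower. With diameter, 7 fell and 2 rose, where 18.1% of all genes fell and 14.8% rose. Genes that rose made up 44.9% of all calls, and 47.5% to 53.1% with the other TMM references, so the majority direction over all genes depended on the reference. The median slope of the list was -0.05 per 10 μm beside -0.02 for all genes. Of the 7 steps between neighbouring sizes, F to G alone gave a call in this list, that of BTG1 (1 of 21, where 1.89% of all genes were higher). Genes higher made up 48.6% of all calls in that step, and 48.4% to 59.2% with the other TMM references, each of which called BTG1.

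**Figure D5:**
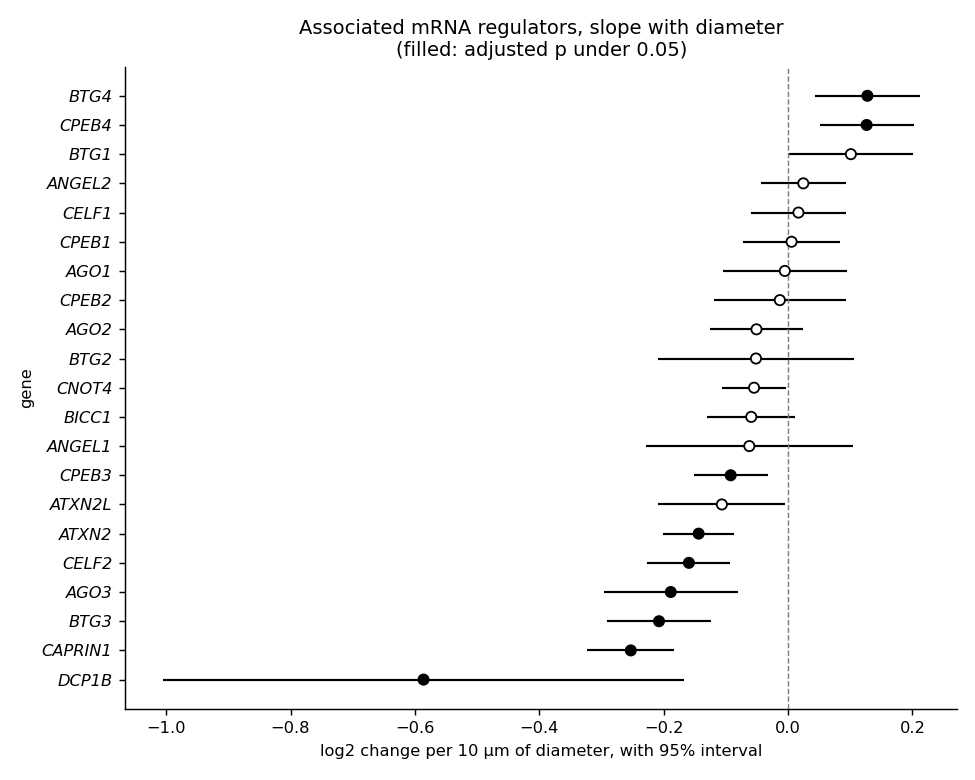
Change per 10 μm of diameter on the log2 scale, with 95% intervals, of 21 genes that recruit or accompany CCR4-NOT. Filled points passed an adjusted p of 0.05: BTG4 and CPEB4 rose, and 7 genes from CPEB3 down to CAPRIN1 and DCP1B fell.

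Of the genes that fell, CAPRIN1, an RNA-binding protein of mRNP granules, went from 65.3 to 15.7 CPM between A and H in replicate 1 and from 101 to 29.4 CPM in replicate 2 (log2 fold change -1.91 ± 0.33, SE; edgeR adjusted p = 0.00077), a call kept with each sum left out. ATXN2, which binds poly(A)-binding protein, fell by 1.05 on the log2 scale and CELF2, a binder of GU-rich mRNA, by 1.19. AGO3, an Argonaute protein, fell by 1.64, with 20 counts in the H sum of replicate 2. Single sums decided the calls of ATXN2, CELF2 and AGO3 from A to H. ATXN2 was not called without the A sum of replicate 1 (-0.76, edgeR adjusted p = 0.19), nor without the H sum of replicate 1 (-0.93, edgeR adjusted p = 0.15) or of replicate 2 (-1.04, edgeR adjusted p = 0.086). CELF2 was not called without the same sums (-1.09, -0.97 and -1.27, edgeR adjusted p = 0.081, 0.16 and 0.053). AGO3 was not called without the A sum (-1.16, edgeR adjusted p = 0.13) or the H sum of replicate 2 (-1.01, edgeR adjusted p = 0.24). With diameter, CAPRIN1, ATXN2 and CELF2 were called under each of the 23 alternatives, and AGO3 under 21. CPEB3, of the cytoplasmic polyadenylation element binding family, fell with diameter by 0.09 per 10 μm (edgeR adjusted p = 0.017), a call made with 13 of the 15 other TMM references and under 12 of the 23 alternatives (-0.10 to -0.05, edgeR adjusted p up to 0.18). DCP1B, a cofactor of decapping, was called lower with diameter on 0 to 40 counts per sum, and under 12 of the 21 alternatives that tested it.

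The BTG family, whose members bind the CAF1-type nucleases, did not move as a block. BTG4, the oocyte member, rose with diameter by 0.13 per 10 μm on the log2 scale (edgeR adjusted p = 0.019), from 2475 to 3624 CPM between A and H in replicate 1 and from 2758 to 6948 CPM in replicate 2. Its difference from A to H was called with 9 of the 15 other TMM references, and not with the one used. BTG3 fell from A to H (-1.40 ± 0.37, SE; edgeR adjusted p = 0.012), though not without the A sum of replicate 2 (-1.02, edgeR adjusted p = 0.11) or the H sum of replicate 1 (-0.93, edgeR adjusted p = 0.22). With diameter it was called lower under each of the 23 alternatives. BTG1 rose from F to G (1.56 ± 0.35, SE; edgeR adjusted p = 0.034), from 11.9 to 32.2 CPM in replicate 1 and from 17.0 to 55.8 CPM in replicate 2. It was called under 16 of the 23 alternatives, and not without the F sum of replicate 1 (2.01, edgeR adjusted p = 0.28), the G sum of replicate 1 (1.27, edgeR adjusted p = 0.46), the F sum of replicate 2 (1.27, edgeR adjusted p = 0.067), the B sum of replicate 2 (1.59, edgeR adjusted p = 0.050) or the replicate block (1.61, edgeR adjusted p = 0.84), nor at 250000 counts per oocyte (1.15, edgeR adjusted p = 0.080) or with all 179 oocytes (1.19, edgeR adjusted p = 0.16). BTG2 was not called.

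CPEB4 rose with diameter by 0.13 per 10 μm (edgeR adjusted p = 0.010), with slopes of 0.06 in replicate 1 (edgeR adjusted p = 0.40) and 0.20 in replicate 2 (edgeR adjusted p = 0.0085). The difference of those slopes was 0.14 and was not called (edgeR adjusted p = 0.46). CPEB1, which holds mRNAs with short tails until maturation, had a slope of 0.01 per 10 μm (edgeR adjusted p = 0.93). The ubiquitin ligase CNOT4, which is not a stable subunit, had a slope of -0.05 (edgeR adjusted p = 0.10). AGO1, AGO2, BICC1, BTG2, CELF1, CPEB2, ANGEL1, ANGEL2 and ATXN2L passed the threshold in none of the comparisons of sizes.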

How the data were processed

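The deposited values are raw counts per gene, 1 column per oocyte. Per the labels and the paper, the authors used Trim Galore (version 0.6.6) for trimming, HISAT2 with the assembly ARS-UCD1.2 for alignment and SeqMonk for counting. The batch correction that the paper reports was not applied here. The treatment of multiply aligned reads, of strand and of overlapping genes is not given in the sources used here, so counts of close paralogs may share reads.

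Symbols came from the study's supplementary tables, of which shortened copies were used. Gene IDs on more than 1 line (CNOT4, CPEB3 and ACTA2) were summed. The 165 oocytes that the study kept were added up by size group and replicate (16 sums). In edgeR 4.0.16, filterByExpr (minimum count 10, minimum total 15) kept 14087 genes, which were scaled by TMM and tested with the quasi-likelihood test. The model held the 8 groups plus a replicate block, or a replicate block plus the mean diameter per 10 μm. P-values were adjusted by Benjamini-Hochberg over all genes, at 0.05. Groups <70 μm and 80-99 μm were means of group coefficients. An SE is the log2 fold change divided by the square root of F, and intervals are at 95%. Deviations of the sums of 1 replicate correlated at 0.53 to 0.80 over 28 pairs, and the labels give each replicate as a separate library preparation, so the replicate number pairs the sums.

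Ratios were log2 of summed counts with 0.5 added to each; the diameters were permuted 100000 times inside each replicate for two-sided p-values, and rho used ranks within replicate. Levels per oocyte were log2(CPM + 1). The steps were tested on simulated data, where most genes changed by 1 on the log2 scale from A to H were missed. As alternatives, the fits were repeated without the replicate block, with RLE normalization, with DESeq2 1.42.0, unfiltered, with 250000 counts per oocyte, on single oocytes, on all 179 oocytes and with each sum left out, and ratios also as the median over oocytes. Slopes per replicate, the test of the replicate and the other TMM references were added after seeing the data. The subunits, the list of 21 associated genes and the markers were chosen with earlier results of these data known. Every subunit was named, associated genes where they passed the threshold or with their list, and for each nuclease the 2 genes with the highest r. The associated list first held 1 more gene, outside these 21, which is not reported here. Fits ran in R 4.3.3 and the other steps in Python 3.11.15 (scipy 1.17.1; pandas 2.3.3; numpy 2.4.6), with plots by matplotlib 3.10.9.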

Additional observations from a re-analysis of the deposited data

Results flagged for a closer look

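The 14 deposited oocytes that the study did not keep entered none of the main comparisons of sizes. They were included only under the alternative that used all deposited oocytes, for the genes and for the ratios. More than 3 counts were present for CNOT7 in 12 of these 14 oocytes, for CNOT2 and CNOT6L in 9 each, for CNOT8 and CNOT10 in 8 each, and for CNOT6, CNOT9 and CNOT11 in 7 each. The size groups hold more than 10 oocytes each, so that single oocytes were not tested as outliers.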

How the results depend on the processing

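The calls of the subunits were recomputed under 23 alternatives for each of the 10 comparisons of sizes, and 0 remained the count in all but the following. With single oocytes as units, 3 subunits were called among the size groups (CNOT2, CNOT7 and CNOT9), 1 from F to G (CNOT7), 1 from A to H (CNOT2) and 2 for the slope (CNOT2 and CNOT6). These p-values treat oocytes that may share an animal as independent. DESeq2 called 1 from F to G (CNOT7). With each of the 16 sums left out in turn, the count from F to G was 0 to 1, the 1 being CNOT7 without the F sum of replicate 2, and the other 9 comparisons gave 0 throughout. The slope of replicate 1 alone, added later, called 2 (CNOT2 and CNOT6L), or 1 (CNOT2) with each of the other 15 sums as the TMM reference and 0 to 2 with sums left out. Those 15 references, also added later, left 0 subunits called in each of the 10 comparisons. Without the replicate as a block, 0 subunits were called in each of the 10 comparisons, but that fit called 0% of all genes in 8 of them, 0.575% from A to H and 15.6% for the slope, so in those 8 it says nothing about the subunits. For the same reason its loss of the 3 associated calls among the size groups, and of BTG1 from F to G (1.61 beside 1.56), says nothing about those genes. It also lost the 5 associated calls from A to H and, for the slope, those of BTG4, AGO3, CPEB3, CPEB4 and DCP1B. Each of these kept the direction of its fitted value.

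Some fitted values changed sign, with the adjusted p above 0.05 each time; the cause was not tested. For the slope per 10 μm, CNOT6L became 0.0060 without the replicate block, CNOT8 became 0.0051 at 250000 counts per oocyte and 0.017 with single oocytes, CNOT9 became 0.0098 at 250000 counts, and CNOT11 became -0.041 at 250000 counts and -0.0026 with single oocytes. From A to H, CNOT11 became 0.20 without the replicate block. With sums left out, the value from A to H ranged from -0.92 to 0.0055 for CNOT6L, from -0.17 to 0.36 for CNOT7 and from -0.996 to 0.53 for CNOT11, and the slope from -0.032 to 0.0077 for CNOT8 and from -0.0065 to 0.064 for CNOT11. Under all other alternatives the 8 subunits kept the direction of both values.

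The r of the ratio of CNOT6L to CNOT6 with diameter was 0.050 to 0.27 with sums left out, and that of CNOT8 to CNOT7 -0.34 to -0.024. With the median over oocytes, r was 0.20 (rho 0.39) for CNOT6L to CNOT6 and -0.38 (rho -0.38) for CNOT8 to CNOT7. No alternative passed the threshold. CNOT11 and CNOT8 in group H of replicate 2 rested on 27 and 109 counts.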
